A study of Mus musculus with 24 samples.

Results

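Some transcripts of the embryonic mouse head were higher at E10.5 than both before and after, and others were lower than both. These transient changes were sought among 46643 probes, with the 8 arrays at E10.5 set against the 8 at E8.5 and the 8 at E12.5. A probe was called a peak when its level at E10.5 was above that at both other stages, and a trough when it was below both. Both differences, and the level at E10.5 minus the average of the other stages (the transient contrast), had to pass a Benjamini-Hochberg adjusted p of 0.05 in LIMMA. By this rule 273 probes were peaks (0.585% of all probes) and 148 were troughs (0.317%). The peaks held 219 named genes and 44 probes without a single symbol, and the troughs 119 named genes and 26 such probes. Both differences of a probe use the same 8 arrays at E10.5, so they are not independent of each other.

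The arrays came from the heads of 12 (C3H/HeH x 101/H)F1 mouse embryos, 4 at each stage, E8.5, E10.5 and E12.5 (days post coitum), and each head was cut along the midline so that its left and right sides gave 1 array each. The samples are labelled brain, but whole heads were taken, so the RNA also came from the other tissues of the head. The study kept embryos whose sides had like amounts of Wnt1 and Shh in qRT-PCR, a choice that concerns the sides and not the stages. Levels below are normalised signals, averaged over both sides of an embryo and given as mean ± SD of 4 embryos, and log2FC is the difference of log2 values.

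Between these stages the neural tube of the head closes, its walls grow, and progenitors of the ventricular zone begin to give rise to neurons. Signalling centres such as the floor plate, a source of Sonic hedgehog, and the boundary of midbrain and hindbrain set regional fates. Primitive red cells from the yolk sac circulate through the same tissue, while pharyngeal arches, neural crest and sense organs form around it. In such bulk samples fewer cells of a type and less RNA per cell cannot be told apart.

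Dcx, a microtubule-binding protein of young neurons, was at −0.993 ± 1.37, 907 ± 321 and 4591 ± 1295. Of 10 measured markers of neural progenitors and neurons 5 rose to E10.5 and 4 rose afterwards, and 0 were peaks and 0 were troughs. Among all 19406 genes, each on its brightest probe, 0.964% were peaks and 0.536% troughs, so a list of this size may well hold none. The transient contrast was higher in 2 of the 10 (Nes and Elavl3), against 3.58% of all genes higher and 4.29% lower. The summed level of the list was 1599 to 2094 in the embryos at E8.5, 3808 to 6103 at E10.5 and 10520 to 15620 at E12.5. The progenitor factor Sox1 was near 0 at every stage on its brightest probe, whereas Sox2 was at 373 ± 156, 471 ± 115 and 385 ± 108.

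The mean deposited intensity of an array was 149.1 to 323.2. Embryo numbers here and below are replicate numbers within a stage, not the animal numbers in the sample titles. The second principal component held 27.4% of the variance. On it, right sides of replicates 1 and 2 lay apart from right sides of replicates 3 and 4 at all stages. All left sides lay between. Right-side arrays with the same number deviated together across stages (correlation 0.5789 to 0.8119), whereas left-side arrays did not (−0.3044 to 0.2951). The labels name no batch for this, and the fit behind the values below does not take it out. With the 4 sets of arrays formed by side and these numbers as a block 621 peaks and 321 troughs were called, among them all of the 273 and 148. On right sides alone 44 peaks and 28 troughs were called, against 286 and 101 on left sides alone. Alternative settings were followed gene by gene for 55 called genes, most of them named below. Other called genes, such as those said to be picked out, were not followed in this way. Of the 55, 34 lost their call on right sides alone. On embryo means, with both sides averaged before the fit, 16 lost it. These losses are not all repeated gene by gene. Embryo 1 at E12.5 was the highest of its stage in 13 of the 16 largest named troughs without overlap of embryos. It was the lowest in 11 of the 16 largest such peaks. Without this embryo 214 peaks and 142 troughs were called.

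**Figure D1:**
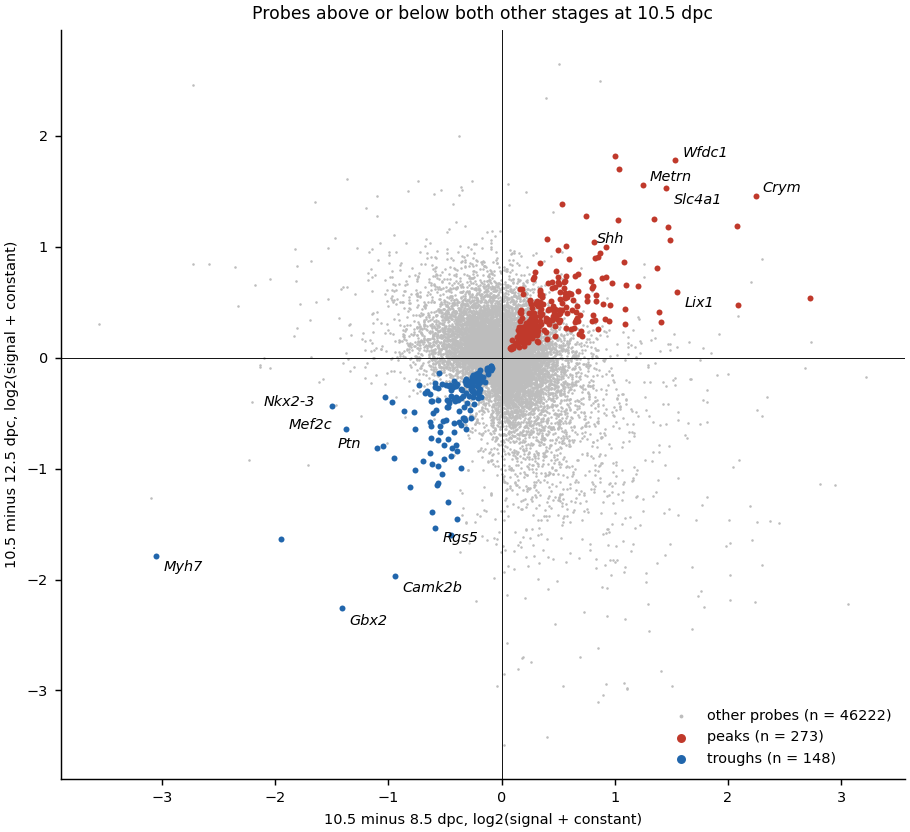
Each point is 1 of 46643 probes, with its log2 difference of E10.5 from E8.5 on the x axis and of E10.5 from E12.5 on the y axis. The 273 peaks lie to the upper right and the 148 troughs to the lower left, and the larger named members are labelled.

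Most transient changes were small on the scale used here. A constant was added to all signals before the log2 step, which shrinks the differences of dim probes. The median transient contrast was 0.38 among peaks and −0.39 among troughs on the log2 scale, and 16 peak probes and 8 trough probes exceeded 1 in size. On this scale Crym, Wfdc1, Metrn, Shh, Hba-x and Slc4a1, with 4 probes without a symbol, were above both stages by more than 1. Myh7, Gbx2 and Acta2 were below both by more than 1. Dim genes can fall short of this limit because of the constant. In 195 of the 273 peaks all 4 embryos at E10.5 lay above all 8 others, and in 124 of the 148 troughs all 4 lay below. Over all probes such a pattern was seen above in 302 (0.647%) and below in 244 (0.523%).

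The transient contrast itself was higher in 985 probes (2.11%) and lower in 1375 (2.95%), so 41.7% of these calls were higher. With array scaling (each array set to a common median of its brighter probes) in place of quantile normalisation 631 were higher and 1509 lower, a share of 29.5%. Beside the peaks, 482 of the higher probes lay above both stages without passing both differences, and 230 lay between them. At the edge of the rule Hebp1, a haem-binding protein, was a peak at a largest adjusted p of 0.0498 (392.4 ± 202, 712 ± 94.05 and 419 ± 177). The histone variant gene Macroh2a1, at 0.0503, was not (1583 ± 137, 2876 ± 290.4 and 2395 ± 218). Ap1b1, an adaptor subunit of clathrin coats, was a trough at 0.0476 (1344 ± 71.2, 1113 ± 147 and 1311 ± 112), and Sema6a, a semaphorin, was not at 0.0513 (115 ± 10.3, 83.3 ± 20.4 and 124 ± 13.9).

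Crym, which encodes a cytosolic thyroid hormone-binding protein, had the largest peak at the settings used here. The embryos were at 63.9, 76.1, 29.3 and 30.4 at E8.5, at 893, 769, 624 and 723 at E10.5 and at 148, 251, 185 and 130.5 at E12.5. The lowest embryo at E10.5 was thus above the highest of the others. However, the largest named peaks and troughs, Crym among them, were picked only from probes without such overlap. For these genes the lack of overlap, here and below, followed from the choice and is no separate support. The log2FC of Crym was 2.24 over E8.5 (SE 0.25, adjusted p = 8.65e-07) and 1.46 over E12.5 (SE 0.25, adjusted p = 0.000227), and the call held in every alternative. The rank did not, as Wfdc1 reached a contrast of 3.50 in an alternative and Crym at most 2.96.

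Wfdc1, a secreted protein with a WAP domain, was low at both other stages. Its levels were 28.3, 54.6, 45.5 and 48.6 at E8.5, 341, 407, 342 and 331 at E10.5 and −3.17, 23, 1.36 and 60.3 at E12.5. It rose by 1.53 (adjusted p = 1.43e-09) and then fell by 1.78 (adjusted p = 1.36e-10) on the log2 scale, without overlap, and all 3 of its probes were peaks.

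Metrn, which encodes meteorin, a secreted factor of neural progenitors, was the brightest after Hba-x of the 16 largest named peaks without overlap. It went from 1579, 1909, 1998 and 2280 to 4897, 4207, 4865 and 4985 and back to 1136, 1588, 1583 and 1902. Embryos at E8.5 and E12.5 overlapped each other, and all lay below those at E10.5. The log2FC was 1.25 over E8.5 (adjusted p = 8.44e-09) and 1.56 over E12.5 (adjusted p = 2.75e-10).

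Some genes of regional signalling were peaks. Shh, the ligand of the floor plate and notochord, was at 228, 434, 410.4 and 412 at E8.5, at 851, 954, 915 and 811 at E10.5 and at 209.9, 304, 406 and 369.9 at E12.5. No embryo at E10.5 overlapped the others, with a log2FC of 1.03 (SE 0.20, adjusted p = 0.000822) and of 1.24 (SE 0.20, adjusted p = 9.32e-05). On right sides alone it did not pass. Of 18 measured Hedgehog pathway genes Shh was the only peak, and the contrast was higher in 3 (Shh, Gli3 and Olig2) and lower in 0, beside 0.964% peaks, 3.58% higher and 4.29% lower among all genes. The counts of the lists that follow stand beside the same shares. Gli3, a transcription factor that mediates Hedgehog responses, was at 2387 ± 68.8, 2464 ± 239 and 1623 ± 298, and Olig2, a factor of motor neuron progenitors, at −10.4 ± 2.85, 37.4 ± 8.28 and 37.8 ± 6.72. Nkx6-2, a homeobox factor of the ventral neural tube, was a peak on both of its probes. It was at 194 ± 42.2, 387 ± 46.9 and 178 ± 46.3 on the brighter. Of 24 measured early born neuron and cranial motor genes it was the 1 peak, with the contrast higher in 2 and lower in 1. The 39 measured brain regional transcription factors held 0 peaks and 1 trough, with the contrast higher in 1 and lower in 4.

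Wnt9a, a Wnt ligand, was at 70.6 to 83.5 at E8.5, at 284 to 320.0 at E10.5 and at 141 to 245 at E12.5, without overlap. Rspo1, a secreted enhancer of Wnt signalling, was at 8.97 ± 6.07, 86.3 ± 26.1 and 44.6 ± 18, with overlap. Rspo1 was no longer called without E10.5 replicate 3 or 4 or E12.5 replicate 1 (adjusted p from 0.0566 to 0.0752). These were the 2 peaks among 30 measured Wnt pathway genes, in which the contrast was higher in 5 and lower in 1. The related Rspo3 was at 66.5 ± 17.5, 627 ± 94.9 and 715 ± 83.8, and its later difference did not pass (adjusted p = 0.493).

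Of 21 measured Fgf pathway genes Etv4 and Fgf17 were peaks, and the contrast was higher in 4 and lower in 0. Etv4, a transcription factor induced by Fgf signals, was at 73.7 ± 11.7, 139 ± 33.8 and 42.1 ± 21.7 (log2FC 0.41 and 0.68), with all 4 embryos at E10.5 above the others. Fgf17, a ligand of the midbrain and hindbrain boundary, was dim at 9.76 ± 6.71, 42.3 ± 10.1 and 17.5 ± 4.12, and its call was lost without E10.5 replicate 2 or 4 or E12.5 replicate 2 or 4 (adjusted p from 0.0774 to 0.0993). Fgf8, the best known ligand of that boundary, was at 144 ± 34.5, 133 ± 19.9 and −1.64 ± 9.696. It fell after E10.5 (adjusted p = 3.89e-08), while its difference from E8.5 did not pass (adjusted p = 0.867).

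In the Notch pathway Hes5, a target that holds progenitors undifferentiated, was at 169, 229, 216 and 229.7 at E8.5, at 623, 1034, 686 and 733 at E10.5 and at 529, 639, 549 and 612 at E12.5. The embryos at E10.5 and E12.5 overlapped, and the fall of 0.32 between them passed at an adjusted p = 0.043 with all embryos. The call was lost in 7 of the 12 fits that left out 1 embryo, those without E8.5 replicate 2 or 3, E10.5 replicate 2 or 4 or E12.5 replicate 1, 3 or 4 (adjusted p from 0.0578 to 0.183). Dtx4, an E3 ubiquitin ligase of the Deltex family that acts on Notch, was at 90.8 ± 11.5, 280.2 ± 12.9 and 122 ± 5.77 (log2FC 0.93 and 0.73) without overlap. Nrarp, a feedback regulator of Notch, rose by 1.92 (adjusted p = 3.10e-12) to 2124 ± 286 and was at 1810 ± 132 at E12.5 (adjusted p = 0.233). Of 26 measured proneural and Notch genes 1 was a peak and 0 were troughs, with the contrast higher in 7 and lower in 2, and with array scaling 0 were peaks.

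Prom1, which encodes prominin, an apical membrane protein of neuroepithelial cells, was at 2562 ± 225, 3691 ± 111 and 2432 ± 225, again without overlap. None of its dimmer probes was a peak. On one of them it rose by 0.55 (adjusted p = 0.00071) and its later difference did not pass (adjusted p = 0.854). By brightest probes Prom1 was the single peak among 24 measured radial glia and neural progenitor genes. The others with a higher contrast, Nes, Vim, Nr2e1 and Pou3f4, rose to E10.5 and their later difference did not pass. Nes, the intermediate filament nestin, was at 79.3 ± 25.4, 339.7 ± 66.9 and 239 ± 56.1, with an adjusted p = 0.139 between E10.5 and E12.5. Stra6, the cell surface receptor for retinol-binding protein, was at 30.6 ± 7.91, 86.9 ± 25.3 and 32.3 ± 14.7. It was the 1 peak among 15 measured retinoic acid genes, with the contrast higher in 4 and lower in 2. Crabp1, which binds retinoic acid in the cytoplasm, had a higher contrast but no peak, at 2013 ± 302, 1538 ± 296 and 318 ± 164.

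Other large peaks lay outside these pathways. Lix1, named for its expression in limb, was at 310.4 ± 18.8, 1147 ± 89.7 and 729 ± 83.7, and 3 of its 5 probes were peaks. Both probes of Lrtm1, a leucine-rich repeat membrane protein, were peaks, at 38.2 ± 14.4, 146 ± 23.5 and −10.3 ± 4.08 on the brighter. Aldh5a1 and Eci1 encode mitochondrial enzymes, the first of the breakdown of the transmitter GABA and the second of the oxidation of unsaturated fatty acids. Aldh5a1 was at 196 to 202 at E8.5, at 517 to 596 at E10.5 and at 257 to 344 at E12.5. Eci1 was at 87.5 to 103, at 379 to 526 and at 276 to 355. Neither overlapped between E10.5 and the other stages. Another probe of Aldh5a1 rose by 1.12 without a later fall that passed (adjusted p = 0.329), and Eci1 did not pass with array scaling. Mt1, a metal-binding metallothionein, was at 2510 ± 322, 3722 ± 689.7 and 1345 ± 282, and lost its call without E10.5 replicate 1 (adjusted p = 0.0585) and with array scaling. Dpep1, a membrane dipeptidase, was at 22.3 ± 4.001, 136 ± 41.4 and 15.9 ± 7.92.

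**Figure D2:**
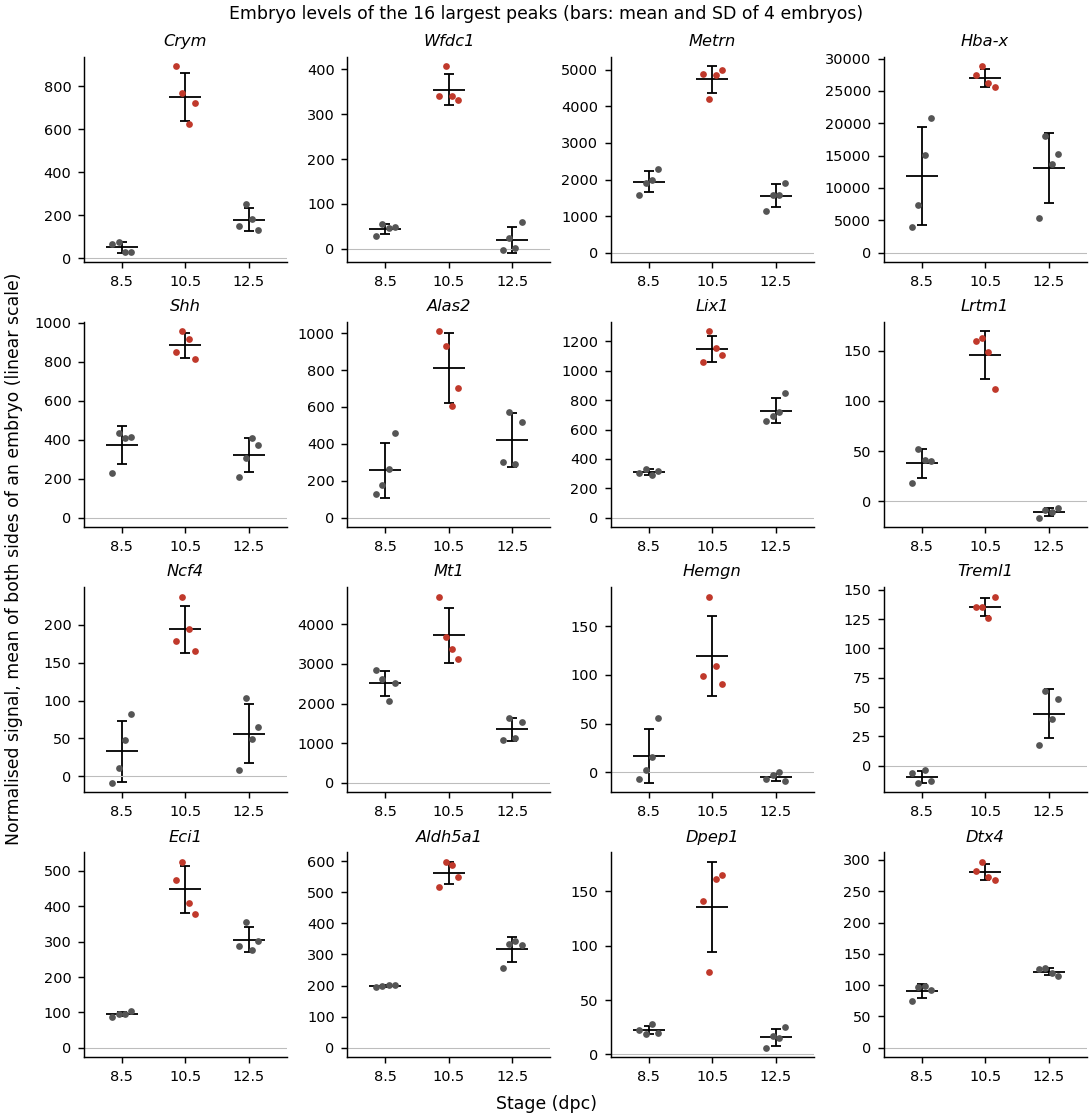
Levels of the 16 named peaks with the largest contrast among those without overlap, by stage in dpc on the x axis and normalised signal on a linear y axis that differs between panels. Points are embryos, and bars give the mean and SD of 4 embryos, with every embryo at E10.5 above all others.

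Among the gene lists, the erythroid genes held the most peaks. Of 26 measured erythroid genes 7 were peaks and 0 troughs, against 0.964% peaks and 0.536% troughs among all 19406 genes on their brightest probes. The contrast was higher in 13 and lower in 1, and its median was 0.25, against 0.0005 for all genes. The 7 were Hba-x, Alas2, Slc4a1, Hemgn, Ermap, Blvrb and Rhag. This count fell to 4 without E8.5 replicate 1, E10.5 replicate 1 or 2 or E12.5 replicate 1, and to 2 on embryo means, with both sides averaged before the fit. The summed level of the list was 24440 to 72050 in embryos at E8.5, 87500 to 110700 at E10.5 and 72550 to 90990 at E12.5, and the part of blood content in these differences was not tested.

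Hba-x, the embryonic zeta globin, was at 3972, 7312, 15080 and 20780 at E8.5, at 27430, 28790, 26240 and 25610 at E10.5 and at 5415, 17960, 13650 and 15280 at E12.5. The embryos at E10.5 lay close together and above all others, which spread widely. The log2FC was 1.47 (SE 0.36, adjusted p = 0.00692) and 1.18 (SE 0.36, adjusted p = 0.03597). The call was lost without E10.5 replicate 1, 2, 3 or 4 or E12.5 replicate 1 or 3 (adjusted p from 0.0564 to 0.209). It was also lost on embryo means, on right sides alone and with signals below 16 raised to 16. The same held with another variance model and under the stricter call rules.

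Slc4a1, the band 3 anion exchanger of the red cell membrane, went from 358, 644, 1175 and 2222 to 2976, 3105, 2443 and 2184 and to 262, 1332, 809 and 1491. Here embryo 4 at E8.5 reached into the range at E10.5, and the call was lost without E8.5 replicate 1 or 2 or E12.5 replicate 1 (adjusted p from 0.0507 to 0.0733). Alas2, the first enzyme of haem synthesis in red cells, was at 126 to 460.1 at E8.5, at 602 to 1009 at E10.5 and at 289 to 573 at E12.5. It did not overlap, and its call was lost without E10.5 replicate 1 or 2 or E12.5 replicate 1 or 3 (adjusted p from 0.0632 to 0.0857).

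Hemgn, a nuclear protein of blood precursors, was at −6.66, 2.24, 15.2 and 55.5 at E8.5, at 98.8, 181, 109 and 90.5 at E10.5 and at −7.24, −2.83, −0.194 and −9.32 at E12.5. It was near 0 in all embryos at E12.5, with a log2FC of 0.82 (adjusted p = 6.71e-06) and 1.04 (adjusted p = 1.75e-07), and was called in each of the 23 alternatives that tested it. Ermap, a red cell adhesion protein, was the dimmest of the 7 at 1.55 ± 5.93, 27.3 ± 13.8 and 2.85 ± 5.18.

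The other globins had courses of their own. Hbb-bh1, an embryonic beta-like globin, fell by 2.49 after E10.5 (adjusted p = 1.74e-05), while its earlier difference of 0.87 did not pass (adjusted p = 0.151). Hbb-y, the other embryonic beta-like globin, rose by 2.74 to E10.5 (adjusted p = 5.03e-08) and its later difference of 0.14 did not pass (adjusted p = 0.887). The adult alpha globin Hba-a1 was at 8278 ± 5366, 25640 ± 1790 and 28720 ± 2386, and the adult beta globin Hbb-bs at 1172 ± 401, 3004 ± 2278 and 21130 ± 3881. Klf1, a transcription factor of red cells, fell by 1.31 after E10.5 (adjusted p = 2.70e-05) to 31.2 ± 15.5. Globin genes are close copies of each other, so a probe may report more than 1 of them.

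The promoters of Hemgn and Alas2 are shown because, of the erythroid peaks with a promoter entry, these were the ones with the GATA motif AGATAA on either strand in the window from 250 bases before to 50 after the first listed gene start in RefSeq (GRCm38.p6). Capitals mark every match to AGATAA, to the E2F motifs TTGGCGC and TTCCCGC, to CCAAT and to CACGTG, on either strand.
Hemgn, chr4:46404134-46404433, minus strand: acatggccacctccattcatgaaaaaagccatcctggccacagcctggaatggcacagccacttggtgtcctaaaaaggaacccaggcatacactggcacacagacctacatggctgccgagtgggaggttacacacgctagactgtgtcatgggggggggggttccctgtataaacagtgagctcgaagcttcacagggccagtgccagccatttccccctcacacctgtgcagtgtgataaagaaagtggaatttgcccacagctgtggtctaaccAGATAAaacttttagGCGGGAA
Alas2, chrX:150547167-150547466, plus strand: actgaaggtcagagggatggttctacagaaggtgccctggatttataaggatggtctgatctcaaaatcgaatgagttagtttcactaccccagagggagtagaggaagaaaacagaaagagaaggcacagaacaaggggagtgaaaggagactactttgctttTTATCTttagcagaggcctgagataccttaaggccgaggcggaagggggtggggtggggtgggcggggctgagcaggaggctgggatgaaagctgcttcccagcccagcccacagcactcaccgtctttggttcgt
In Hemgn the match AGATAA began at base 29 after the start, followed by a match to TTCCCGC on the other strand at base 44. In Alas2 the match lay on the other strand, with its first base at −86. Of the 18 measured erythroid genes with a promoter entry 6 held AGATAA (33.3%), against 9.59% of the 15552 genes with an entry. Among peak genes the share was 9.43% of 159, and among trough genes 6.90% of 87.

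Treml1, a receptor of platelet granules, went from −6.73, −14.7, −3.89 and −12.8 to 135, 135, 126 and 144 and to 17.7, 63.96, 39.4 and 56.7. All 4 embryos at E10.5 were above the rest, with a log2FC of 1.21 (adjusted p = 2.46e-10) and 0.64 (adjusted p = 3.04e-06). In a list of megakaryocyte and platelet genes drawn up after the peaks were seen, 4 of 18 measured genes were peaks (Treml1, Tubb1, Ppbp and Mpig6b), and 3 with array scaling. Tubb1, the beta tubulin of platelets, was at 21.1 ± 19.1, 139.5 ± 12.6 and 38.6 ± 21.3. The summed level of the list was −46.8 to 84.6 at E8.5, 439 to 515 at E10.5 and 90.5 to 252 at E12.5, and its defining genes Itga2b, Pf4 and Gp9 were near or below 0 at all stages. Ncf4, a subunit of the phagocyte NADPH oxidase, was at 33.02 ± 40.5, 194 ± 31.4 and 56.3 ± 39.5. Of 14 measured macrophage genes 0 were peaks, 9 rose to E10.5 and 3 rose from E10.5 to E12.5.

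Many genes of DNA replication had a higher contrast, but few of them formed a peak. Of 32 measured S phase and E2F target genes only E2f2 and Rrm2 were peaks and 0 were troughs. The contrast was higher in 16 and lower in 0, with a median of 0.33, and with array scaling it was higher in 10 and Rrm2 was no longer a peak. From E10.5 to E12.5 25 of the genes fell, and from E8.5 to E10.5 2 rose and 6 fell. Over all genes 8.07% rose and 7.76% fell in the first interval, and 9.05% rose and 7.3% fell in the second. Mcm5, a subunit of the replicative helicase, was at 8130 ± 41.8, 6332 ± 435 and 3453 ± 503, and Ccne1, the cyclin that starts S phase, at 873 ± 51.3, 636 ± 123 and 205 ± 64.7.

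E2f2, a transcription factor of the E2F family that drives genes of cell cycle entry, was at 258, 256, 254 and 298 at E8.5, at 486, 546, 553 and 569 at E10.5 and at 298, 331, 379 and 352 at E12.5. The embryos at E10.5 did not overlap the others. The log2FC was 0.76 (SE 0.08, adjusted p = 1.97e-07) and 0.51 (SE 0.08, adjusted p = 4.09e-05), and the call held in every alternative.

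Rrm2, the small subunit of the enzyme that makes deoxynucleotides, was at 1305, 1338, 1217 and 1129, at 1863, 1835, 1533 and 1592 and at 607, 775, 812 and 814. The 3 stages did not overlap. It rose by 0.40 (adjusted p = 0.00606) and fell by 1.07 (adjusted p = 2.85e-08). On a dimmer probe of Rrm2 the rise did not pass (adjusted p = 0.943). The large subunit Rrm1 was at 455 ± 129, 733 ± 234 and 314 ± 85.1, and its rise did not pass (adjusted p = 0.196).

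Further peaks of the cell cycle lay outside the list and were picked out after their values were seen. Clspn, a replication checkpoint adaptor, was at 418 ± 37.1, 648 ± 93.1 and 273 ± 53.8, and Chek1, the checkpoint kinase it serves, at 60.4 ± 12, 112 ± 16.4 and 45.5 ± 9.84. Tk1, thymidine kinase, was at 502 ± 77.1, 722 ± 41.3 and 410.4 ± 81.1. Kif4, a chromosome-bound kinesin, was a peak on both probes, and Cenpw, a centromere protein, was at 1613 ± 127, 2064 ± 78.5 and 1100 ± 201. In the lists themselves 0 of 22 mitosis genes and 0 of 19 cyclin and Cdk regulators were peaks on their brightest probes, with the contrast higher in 5 and in 4 and lower in 0 of both. With array scaling 2 of the cyclin and Cdk regulators were peaks, Ccnd1 and Rbl1, a pocket protein that binds E2F factors. A dimmer probe of Ccnd1, the cyclin of early G1 phase, was a peak at 706 ± 83.3, 1413 ± 109.6 and 988 ± 193.

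The promoters of the 2 peaks of the replication list are shown with the same motifs in capitals.
E2f2, chr4:136172024-136172323, plus strand: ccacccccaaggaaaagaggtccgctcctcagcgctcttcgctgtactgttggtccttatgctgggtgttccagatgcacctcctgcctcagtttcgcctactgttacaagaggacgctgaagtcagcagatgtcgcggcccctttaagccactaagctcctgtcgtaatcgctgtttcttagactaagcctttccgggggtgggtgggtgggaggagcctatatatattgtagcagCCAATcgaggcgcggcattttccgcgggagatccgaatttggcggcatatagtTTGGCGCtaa
Rrm2, chr12:24708004-24708303, plus strand: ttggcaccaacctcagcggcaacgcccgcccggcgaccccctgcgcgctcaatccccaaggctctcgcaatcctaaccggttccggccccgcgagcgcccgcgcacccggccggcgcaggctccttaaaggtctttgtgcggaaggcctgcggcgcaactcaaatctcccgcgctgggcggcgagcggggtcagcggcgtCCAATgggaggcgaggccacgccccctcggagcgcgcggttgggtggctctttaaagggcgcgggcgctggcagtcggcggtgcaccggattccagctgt
E2f2 held TTGGCGC at base 41 after the start and CCAAT at −13, and Rrm2 held CCAAT at −50 and no match to either E2F motif in this window. Either E2F motif was found in 16 of the 28 genes of the list with an entry (57.1%). Among peak genes it was found in 21 of 159 (13.2%), among trough genes in 6 of 87 (6.90%) and among all genes in 9.47%. For TTGGCGC alone these shares were 7.55%, 3.45% and 3.45%, and for TTCCCGC alone 7.55%, 3.45% and 6.42%. CCAAT was found in 39.0% of peak, 43.7% of trough and 38.6% of all genes, and CACGTG in 10.7%, 10.3% and 8.54%.

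**Figure D3:**
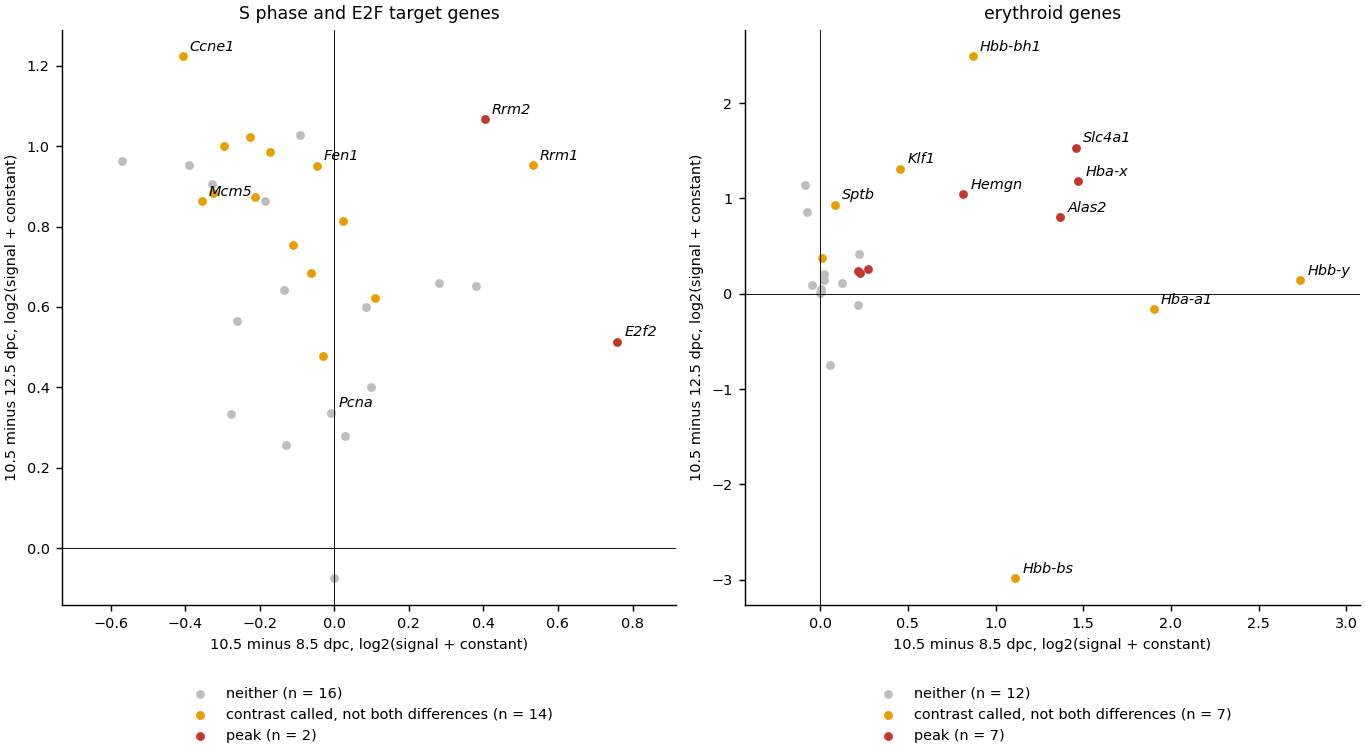
Log2 difference of E10.5 from E8.5 (x axis) against that of E10.5 from E12.5 (y axis) for the 32 measured replication genes and the 26 measured erythroid genes. Of these 2 and 7 are peaks, and most replication genes lie above 0 on the y axis but on both sides of 0 on the x axis.

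In cholesterol synthesis, of 16 measured genes only Lss, which closes the sterol ring, was a peak. It was at 144 ± 30.9, 272 ± 56.7 and 166 ± 36.1 with overlapping embryos, and was lost with array scaling and without E10.5 replicate 1 or E12.5 replicate 3 (adjusted p from 0.0551 to 0.0609). The contrast was higher in 6 and lower in 0, at a median of 0.31, and with array scaling it was higher in 2. Of the list 12 genes rose from E8.5 to E10.5 and 1 fell afterwards, and Hmgcs1, an early enzyme of the pathway, was at 5202 ± 460.0, 13130 ± 1394 and 15270 ± 952.

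The deepest trough was Myh7, the beta myosin heavy chain of embryonic heart and slow muscle. Its levels were 1974, 388, 1929 and 1930 at E8.5, 27.4, 77.4, 36.8 and 50.6 at E10.5 and 604, 342, 530.5 and 394 at E12.5. All embryos at E10.5 were low, whereas embryo 2 at E8.5 stood below the other 3 of its stage. The log2FC was −3.05 against E8.5 (SE 0.31, adjusted p = 1.87e-07) and −1.79 against E12.5 (SE 0.31, adjusted p = 0.000223), and the call held in every alternative. The other probe of Myh7 was near 0 at all stages (2.45 ± 4.25, −2.29 ± 2.22 and −1.64 ± 3.69) and was no trough (adjusted p = 0.7797).

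Myh7 was the only trough of 22 measured heart genes, of which the contrast was lower in 7 and higher in 1. The other 6 were Myl4, Actc1, Tnnc1, Tnnt2, Myl3 and Actn2, all of the contractile apparatus, and their difference between E10.5 and E12.5 did not pass. Myl4, an embryonic myosin light chain, was at 1670 ± 963, 39.3 ± 11.7 and 384 ± 449, and Myl3 was below 0 at both later stages. Without E8.5 replicate 2 or E12.5 replicate 1 the list held 2 troughs. Its summed level was 1181 to 9556 at E8.5, 384.8 to 453.8 at E10.5 and 903.7 to 3735 at E12.5, and the part of heart tissue in these differences was not tested.

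Mef2c, a transcription factor of heart, muscle, neural crest and neurons, was at 498, 469, 518 and 596 at E8.5, at 142, 77.4, 143 and 149.7 at E10.5 and at 313, 203, 299 and 254 at E12.5. The stages did not overlap, and the log2FC was −1.38 (adjusted p = 1.00e-08) and −0.65 (adjusted p = 0.000303). On left sides alone the call was lost, and its dimmer probes were not troughs. Rgs5, a G protein regulator of pericytes, was near 0 at E10.5 (−9.61, 5.08, 2.98 and −1.53), between levels of 60.8 ± 28.6 and 234 ± 96.05, and was lost on embryo means and on either side alone. Acta2, the actin of smooth muscle, picked out after its values were seen, was at 3226 ± 1238, 726 ± 289 and 2780 ± 1492 with overlapping embryos (log2FC −1.95 and −1.64). Of 18 measured skeletal muscle genes 0 were troughs.

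Gbx2 had the next largest trough contrast at the settings used here, although Camk2b reached −3.43 in an alternative and Gbx2 no further than −2.08. It encodes a homeobox protein that positions the boundary of midbrain and hindbrain. The embryos were at 1320, 1172, 1599 and 1473 at E8.5, at 405, 437, 458 and 490.3 at E10.5 and at 3076, 2894, 2357 and 2406 at E12.5. The 3 stages were fully apart, with E10.5 lowest and E12.5 highest. The log2FC was −1.41 (SE 0.13, adjusted p = 6.28e-08) against E8.5 and −2.26 (SE 0.13, adjusted p = 5.16e-11) against E12.5, and the call held in every alternative. A second, dimmer probe of Gbx2 fell by 0.75 to E10.5 and its later difference did not pass (log2FC 0.00, adjusted p = 0.998). Gbx2 was the only trough among 39 measured brain regional transcription factors.

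A few further genes of arches and crest were troughs. Of 35 measured pharyngeal arch and cranial mesenchyme genes 2 were troughs (Gbx2 and Nkx2-3) and 1 was a peak (Tbx2). The contrast was lower in 4 of them and higher in 2. Nkx2-3, a homeobox factor of pharyngeal endoderm, was at 342 ± 121, 40.9 ± 17.9 and 96.9 ± 11.5. Its embryos did not overlap, but the rise to E12.5 was small (log2FC of E10.5 against E12.5 −0.44, adjusted p = 0.0323) and the call was lost without E10.5 replicate 1 or 4 or E12.5 replicate 1, 2, 3 or 4 (adjusted p from 0.0545 to 0.1497). Tfap2a, a factor of neural crest and surface ectoderm, was at 1029 ± 50.3, 523 ± 127 and 777 ± 172 on its brightest probe, with overlap. On another probe it fell by 0.97 and its later difference did not pass (adjusted p = 0.998). Kit, the receptor of pigment cell and blood precursors, was at 453 ± 38.8, 249 ± 42.3 and 341 ± 42.9, and was lost without E10.5 replicate 1 or 2 or E12.5 replicate 1 or 3 (adjusted p from 0.0555 to 0.114). Of 15 measured neural crest and Schwann precursor genes Tfap2a and Kit were troughs and 0 were peaks, with the contrast lower in 4. Tbx2, an arch and eye factor, was a dim peak at 11.4 ± 5.63, 93.3 ± 51.1 and 37.1 ± 26.2, and lost its call in 10 of the 12 fits that left out 1 embryo, those without E8.5 replicate 1, 2, 3 or 4, E10.5 replicate 1, 3 or 4 or E12.5 replicate 1, 2 or 4 (adjusted p from 0.0581 to 0.241).

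Ptn, the heparin-binding growth factor pleiotrophin, was at 6916, 6698, 7760 and 7768 at E8.5, at 2967, 3238, 3465 and 3652 at E10.5 and at 5931, 4774, 6957 and 6249 at E12.5. The embryos at E10.5 lay below all others, with a log2FC of −1.10 (adjusted p = 3.01e-09) and −0.81 (adjusted p = 2.48e-07). Gdf1, a TGF-beta family ligand that shares a transcript with Cers1, was at 428 ± 52.98, 162 ± 11.2 and 418 ± 114. Gdf10, a BMP-like ligand, was at 363 ± 69.3, 112 ± 12.3 and 302 ± 123, and Bmper, a secreted regulator of BMP signals, at 85.8 ± 17.96, 31.8 ± 7.104 and 146 ± 14.5. None of the 4 overlapped between E10.5 and the others, and each kept its call in every alternative.

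Of 21 measured BMP and TGF-beta genes 2 were troughs (Gdf10 and Bmper) and 1 was a peak, with the contrast lower in 5 and higher in 2. The peak was Tgfbr1, a TGF-beta receptor, at 2365 ± 225, 3900 ± 249.8 and 3295 ± 287, and it was lost without E10.5 replicate 3 or 4 or E12.5 replicate 1 (adjusted p from 0.0627 to 0.0834).

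Camk2b, a subunit of the calcium and calmodulin kinase of synapses, was at 93.8, 167, 183 and 189 at E8.5, at 19.4, 21.4, 23.3 and 27.9 at E10.5 and at 832, 285, 377 and 407 at E12.5. The embryos at E10.5 were apart from the rest, with a log2FC of −0.94 (adjusted p = 0.000605) and −1.96 (adjusted p = 2.61e-08), but on right sides alone the call was lost. Pnma2, a gene expressed in brain, was at 321 ± 34.99, 169 ± 35.2 and 644 ± 118 and was called in every alternative. No list of synaptic genes was counted. Prkcb, a protein kinase C isoform, was at 207 ± 31.2, 102 ± 18.2 and 382 ± 167, and was lost on embryo means and on either side alone.

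Ntrk3, the receptor of neurotrophin-3, was dim at 34.7 ± 7.54, 8.07 ± 5.33 and 67.7 ± 21.5, was not called without E10.5 replicate 1 (adjusted p = 0.0737), and was no trough on its other 3 probes. Scamp5, a synaptic vesicle membrane protein, was at 685 ± 75.4, 494 ± 68.99 and 1606 ± 484. It lost its call in 7 of the 12 fits that left out 1 embryo (adjusted p from 0.0502 to 0.175). These were the fits without E8.5 replicate 1, 2 or 3, E10.5 replicate 1, 2 or 4 or E12.5 replicate 4. On a dimmer probe Scamp5 did not fall to E10.5 (log2FC 0.03, adjusted p = 0.854), at 14.45 ± 3.6, 17.15 ± 5.39 and 42.8 ± 9.33. Sdc3, the neuronal syndecan, was at 1306 ± 178, 864 ± 267 and 2024 ± 392.4, and lost its call without E8.5 replicate 3 or 4 or E10.5 replicate 1 or 2 (adjusted p from 0.0682 to 0.147). Tunar, a long noncoding RNA of stem cells and brain, was at 143 ± 18.2, 72.3 ± 12.7 and 482 ± 182, and lost its call without E8.5 replicate 1 or 4 or E10.5 replicate 1 or 2 (adjusted p from 0.0611 to 0.0807). Rpp25, a subunit of the RNA-processing enzyme RNase P, was at 182 ± 42.2, 50.6 ± 19.7 and 271 ± 96.3, and Bcas1, later a gene of myelinating cells, at 212 ± 33.04, 111 ± 30.1 and 358 ± 42.6.

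Picked out after their values were seen, Prkcz, an atypical protein kinase C of cell polarity, and Adgrl1, a latrophilin receptor of synapses, were troughs on both of their probes. Prkcz was at 268 ± 28.3, 134 ± 18.5 and 379.5 ± 106 on one of them and at 237 ± 21.6, 148 ± 23.6 and 308 ± 65.1 on the other. Dnajc5, the cysteine string protein of synaptic vesicles, was a trough on 2 of 3 probes, and Clu, the secreted chaperone clusterin, was at 292 ± 29.7, 123 ± 15.1 and 263 ± 37.4.

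**Figure D4:**
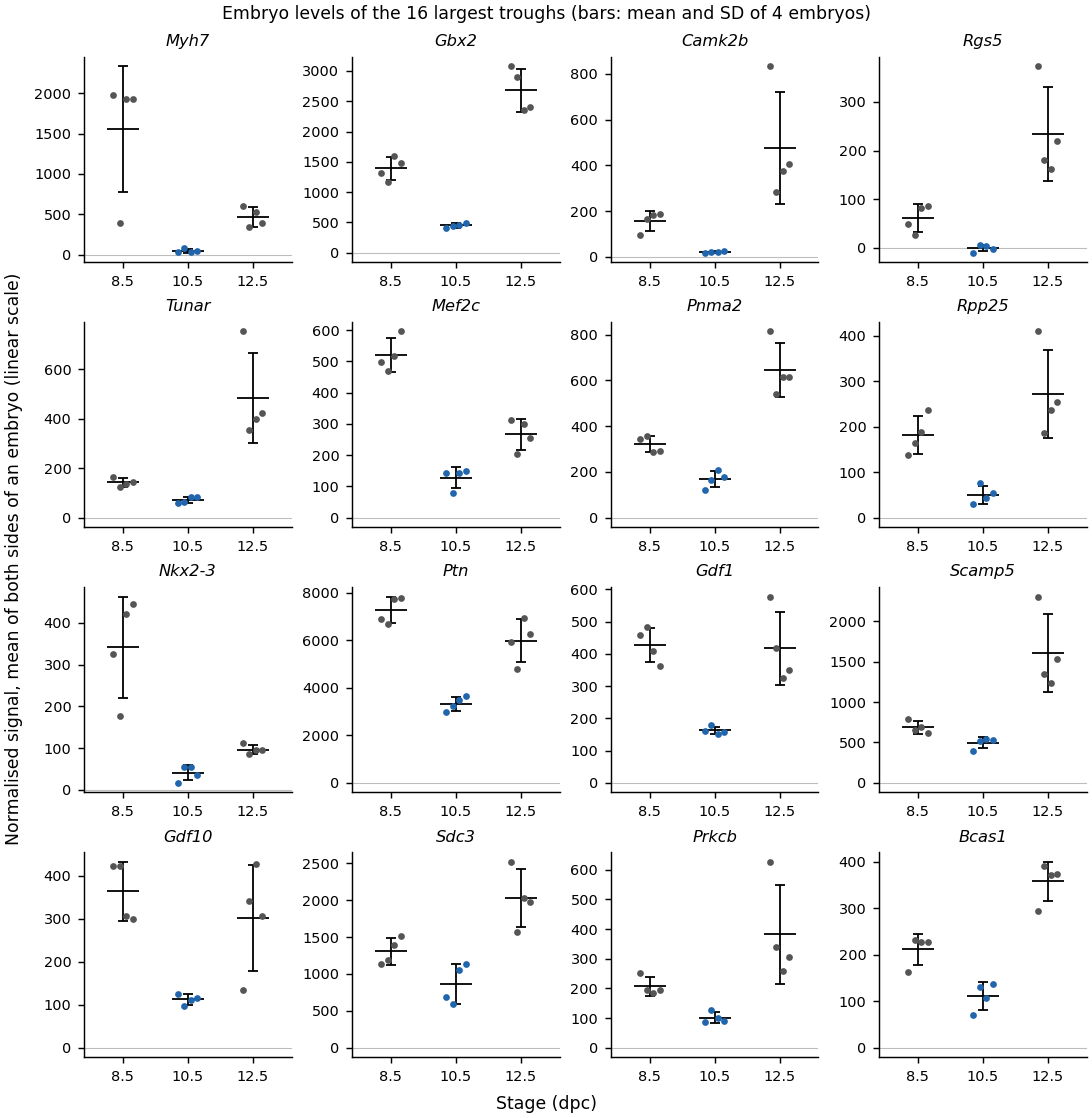
Levels of the 16 named troughs with the largest contrast among those without overlap, by stage in dpc on the x axis and normalised signal on a linear y axis that differs between panels. Points are embryos, and bars give the mean and SD of 4 embryos, with every embryo at E10.5 below all others.

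Many lists held no peak and no trough. There were 0 of both among 24 measured Hox genes, 26 endothelial genes, 28 oxidative phosphorylation genes, 27 cytosolic ribosomal protein genes, 26 hypoxia and glycolysis genes, 19 immediate early and heat shock genes and 21 lens and pigment genes. In ribosome biogenesis 10 of 19 genes fell to E10.5 and 14 fell after it, with a median contrast of 0.01. Among 23 canonical histone genes the 1 peak, H4c3, was at 16.7 ± 6.14, 32.1 ± 4.55 and 16.8 ± 5.39, and lost its call in 9 of the 12 fits that left out 1 embryo, those without E8.5 replicate 2, 3 or 4, E10.5 replicate 1, 2, 3 or 4 or E12.5 replicate 1 or 3 (adjusted p from 0.0501 to 0.155). Cldn3, a tight junction protein and the 1 peak of 18 epithelial genes, was at 22.4 ± 7.31, 48.7 ± 10.2 and 20.7 ± 15.7, and was lost without E8.5 replicate 1 or 2, E10.5 replicate 2 or E12.5 replicate 1 (adjusted p from 0.0701 to 0.106). Mecom, a zinc finger factor of blood stem cells, peaked with overlap at 37.6 ± 7.35, 90.9 ± 19.1 and 51.1 ± 17.1.

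**Figure D5:**
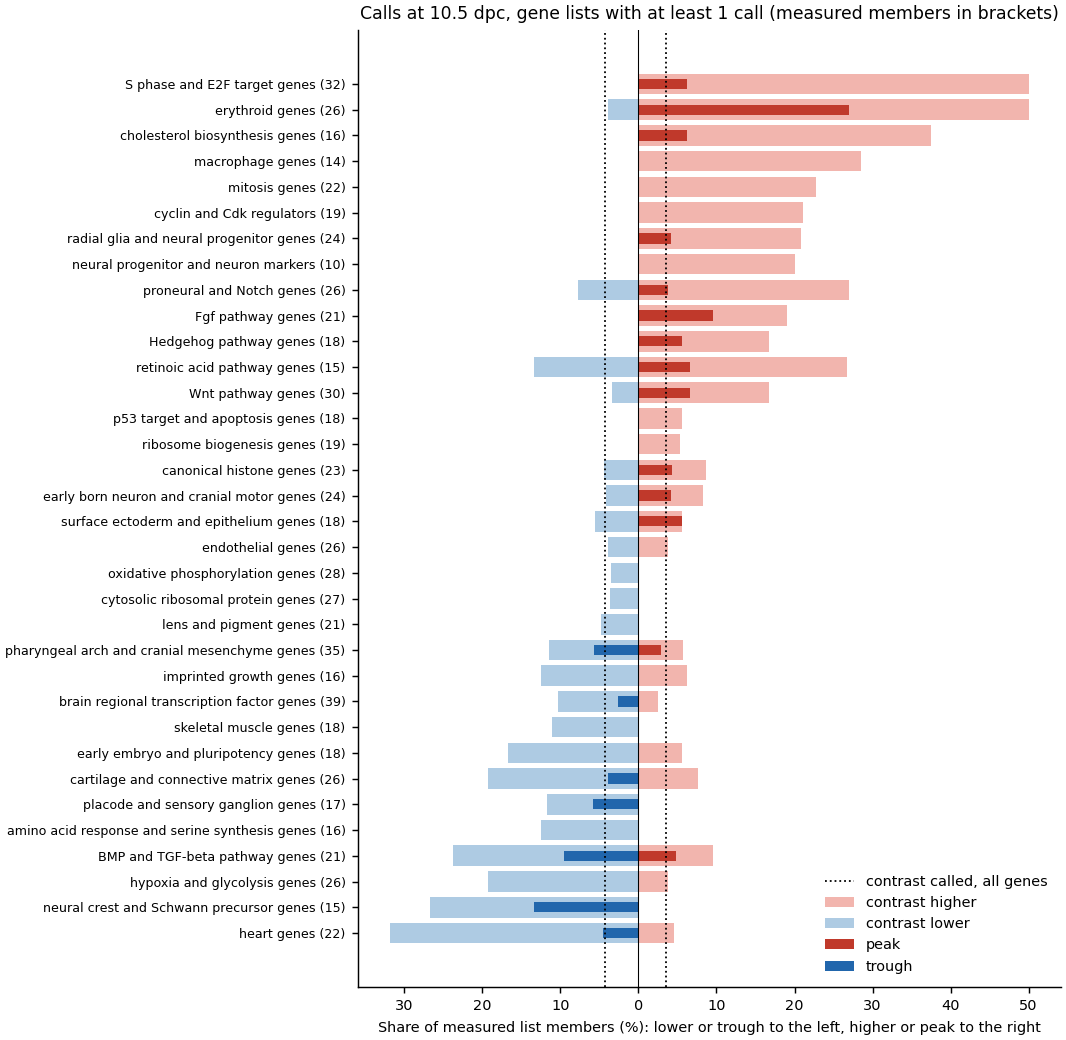
Share of the measured members of each list, in percent on the x axis, whose transient contrast was higher or lower at E10.5, with peaks and troughs marked within. The shares of all genes on their brightest probes were 3.58% higher and 4.29% lower, and the erythroid genes have the longest peak bar (7 of 26).

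No difference between left and right was called in the transient contrast. It passed in 0 of 46643 probes (0%) in LIMMA, and 1 probe was called when signals below 16 were raised to 16. At an unadjusted p under 0.05 there were 1522 probes, fewer than chance alone would give. The split among right sides was left in the spread of this fit. The lack of calls therefore does not show that the sides were alike. Xist, the RNA of the inactive X chromosome, was at 373, 20.7, 13.9 and 17.6 at E8.5, at 147, 17.6, 74.1 and 59.4 at E10.5 and at 15.7, 156, 17.5 and 69.1 at E12.5. It varied between embryos of a stage, and neither Xist nor the 4 other measured sex-linked genes passed the transient contrast.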

How the data were processed

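RNA of left and right head sides of 12 embryos was hybridised to 24 Illumina mouse WG-6 BeadChip arrays. The deposited values were linear signal intensity, background subtracted by the authors with the scanner software (the submitters' processing notes name GenomeStudio), and could be below 0. The quantile normalisation of the study's methods was not in the deposited intensity values. A second table held 72 per-sample columns named by BeadChip position, which no label ties to a sample, and was not used.

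A constant of 119.5 was added so that the lowest value, −103.5, became 16, and arrays were quantile normalised and put on the log2 scale. LIMMA (limma 3.58.1, statmod 1.5.0, R 4.3.3) fitted stage and side with embryo as a random block (correlation 0.0893), and adjusted p-values by Benjamini-Hochberg over 46643 probes. Levels in the text are the normalised signal less the constant. As the constant shrinks differences of dim probes, log2FC understates their change. The embryo correlation was low, so both sides of an embryo counted almost as separate samples. The p-values thus measure the spread between arrays as well as between embryos of 1 study. The split among right sides is part of that spread. On embryo means 170 peaks and 82 troughs were called, against 273 and 148. The number of arrays limits the precision.

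Platform annotation gave 32794 probes 1 symbol, 55 several and 13794 none. A gene was represented by its brightest probe. Named genes were the 16 with the largest contrast in each direction without overlap of embryos, up to 5 called members of each of 37 gene lists, and neural, sex-linked and a few further genes. List members without a call, and genes said to be picked out, were named after their values were seen. The members and lists were chosen with earlier results of these data known. The lists covered S phase, mitosis and cyclin genes, neural progenitors and regional factors, signalling pathways, other head tissues, blood, heart, muscle, metabolism, ribosomes, histones and sex-linked genes. The megakaryocyte and platelet list was added after seeing the data. Alternatives covered the normalisation, the constant, dim probes, each side, embryo means, blocks, the variance model, the call rule and each embryo left out. They were followed gene by gene only for the 55 called genes chosen by the naming rule above. The fit was tested on simulated data.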

Additional observations from a re-analysis of the deposited data

Results flagged for a closer look

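In 16 of 210 groups of 4 embryos tested among the named genes, 1 embryo stood apart from the other 3 of its stage by Dixon's test. Chance gives about 1 in 20 such groups. Embryos are named by replicate number. No cause was tested.

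At E8.5 Shh was at 227.7 in embryo 1, against 410.4 to 434.4 in the others, and Myh7 was at 387.9 in embryo 2, against 1929 to 1974. Embryo 1 was also at 253.4 for Prkcb (185.7 to 194.8 in the others) and at 162.3 for Bcas1 (226.9 to 231). Xist was at 372.8 in the same embryo, against 13.9 to 20.67. Embryo 4 was at 298.3 for E2f2 (253.6 to 258.4) and at 10.39 for Ermap (−2.106 to −0.4625).

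At E10.5 embryo 2 was at 406.7 for Wfdc1 (330.9 to 341.5 in the others), at 4207 for Metrn (4865 to 4985) and at 77.37 for Mef2c (142 to 149.7). Embryo 1 was at 485.8 for E2f2 (546.3 to 568.8) and at 320.1 for Nkx6-2 (392.9 to 426.6).

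At E12.5 embryo 1 was below the others for Aldh5a1, at 257.2 (328.7 to 343.9), for Rrm2, at 606.9 (775.1 to 814.3), and for Cldn3, at −2.446 (25.26 to 31.78). Embryo 3 was at 167.4 for Bmper (135.7 to 140.5). All these genes but Xist were peaks or troughs, and of them only Cldn3 lost its call without the embryo named here for it.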

How the results depend on the processing

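No direction reversed under any alternative among the 55 called genes followed gene by gene. Peaks were 177 with array scaling, 170 on embryo means, 44 on right sides alone, 145 at an adjusted p of 0.01 and 98 when the larger of both p-values was adjusted, and 214 to 270 with 1 embryo left out, against 273. Troughs were 82 on embryo means, 28 on right sides alone, 77 at 0.01 and 32 with the larger p-value, and 98 to 167 with 1 embryo left out, lowest without E10.5 replicate 2, against 148. Probes with a higher contrast (985) became 631 with array scaling, 516 on embryo means, 116 on right sides alone and 550 at 0.01, and 724 to 1023 with 1 embryo left out. Probes with a lower contrast (1375) became 876 without dim probes, 663 on embryo means, 845 on left and 159 on right sides alone and 756 at 0.01, and 812 to 1395 with 1 embryo left out (812 without E10.5 replicate 1, 887 without E10.5 replicate 2). The left against right count was 0, or 1 with signals below 16 raised to 16. The causes were not tested, and left and right sides alone use the same number of arrays.

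With the replicate block there were 460 peaks, 264 troughs, 1754 probes higher and 2141 lower, and with the 4 sets of arrays as a block 621, 321, 2460 and 2442. All 273 peaks and 148 troughs were called under both. Deviations of samples with the same number correlated at 0.5789 to 0.8119 on right sides and −0.3044 to 0.2951 on left sides. The embryos of different stages are not the same animals, and the labels do not say what right sides with the same number share. Of the same 55 genes 49 were still called with array scaling, 39 on embryo means and 42 on left and 21 on right sides alone. With 1 embryo left out 43 to 52 were still called. Signals near background limit dim probes, and 47 peaks and 26 troughs were below 50 at their highest stage.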
